A study of Mus musculus with 24 samples.

Results

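Antigen presentation on MHC class II and the co-stimulatory signals that go with it were examined through the mRNA of 10 genes in mouse bone marrow-derived macrophages (BMDMs). The 10 genes were listed by name and by their known roles, not ranked by a measured value, but with earlier results of these data known. All 10 were among the 22165 genes of the deposited table. They are the class II transactivator Ciita, the invariant chain Cd74, the class II chains H2-Aa, H2-Ab1 and H2-Eb1, the peptide editor genes H2-DMa and H2-DMb1, the co-stimulators Cd80 and Cd86, and Cd274, which encodes the co-inhibitory ligand PD-L1. All 10 passed the filter on low counts and were tested among 11878 genes.

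The study asked how itaconate and its enzyme Irg1 (Acod1) shape the late response of macrophages to lipopolysaccharide (LPS), and it sequenced mRNA from 24 BMDM cultures in 8 groups of 3 independent cultures. The marrow came from C57BL/6N mice (WT) and from Irg1-/- mice on the C57BL/6N background, 8 to 20 weeks old according to the labels, and every culture was grown for 7 days with 20 ng/ml M-CSF. Unstim. cells received no LPS. LPS 3h cells were carried through the medium change and rest without an earlier dose and then received LPS for 3 h. LPS 24h cells received 100 ng/ml LPS for 24 h. LPS 24h->LPS 3h cells, called tolerized by the study, received 100 ng/ml LPS for 24 h, rested for 1 h in fresh medium and received LPS again for 3 h. The labels name no interferon-gamma, the classical inducer of class II in macrophages, in any treatment. The 3 cultures of a group were independent cultures, and nothing in the labels says whether they came from separate mice.

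Class II molecules are dimers of an alpha and a beta chain that carry peptides from engulfed material to CD4+ T cells. The invariant chain Cd74 escorts the new dimers and blocks their groove until it is degraded, and H2-DM, a dimer of H2-DMa and H2-DMb gene products, then exchanges its remnant for peptide. Ciita is a co-activator without DNA binding of its own that is recruited to class II promoters by factors on the conserved X and Y boxes. Cd80 and Cd86 engage CD28 and CTLA-4 on T cells, and PD-L1 engages PD-1.

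RefSeq windows from 250 bases before to 50 bases after the transcription start were present for 6 of the 10 genes, H2-Aa, H2-Eb1, H2-DMa, H2-DMb1, Cd80 and Cd274, and absent for Ciita, Cd74, H2-Ab1 and Cd86. The stretches below are shown as members whose windows held letters of the X or X2 box together with the Y box. They run 5′ to 3′ along the gene, end at the base before the start for H2-Aa and H2-Eb1, and stand in capitals where the Y box (CCAAT), the X2 box (TGACG) or the core of the X box (AACNGATG) matched on either strand. H2-Aa lies on the minus strand at chr17:34287824-34287953, H2-Eb1 on the plus strand at chr17:34305737-34305866 and the H2-DMb1 stretch on the plus strand at chr17:34153089-34153118, all in GRCm38.p6.
H2-Aa: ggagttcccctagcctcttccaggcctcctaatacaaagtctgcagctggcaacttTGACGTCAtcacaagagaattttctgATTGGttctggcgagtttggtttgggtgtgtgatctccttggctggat
H2-Eb1: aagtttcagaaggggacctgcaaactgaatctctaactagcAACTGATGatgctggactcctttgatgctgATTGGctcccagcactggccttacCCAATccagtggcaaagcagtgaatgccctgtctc
H2-DMb1: tttacctagtAACTGATGatgctaggctga

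In H2-Aa the X2 letters matched on both strands within 1 overlapping run that began 74 bases before the start. A Y box followed 48 bases before the start, read on the strand opposite to the gene. H2-Eb1 held the X box core 89 bases before the start and Y boxes at 59 bases (opposite strand) and 35 bases (strand of the gene) before it. H2-DMb1 held the same X box core at 92 bases and a Y box, on the opposite strand, at 61 bases before the start. A Y box was found in 1 of the 2 windows of H2-DMa, and no match to the 3 motifs lay in the windows of Cd80 and Cd274. Of all 32851 windows, 37.4% held the Y box letters, 20.8% the X2 letters, 2.32% the X box core, and 8.44% a Y box together with an X2 box or X box core. The motifs were chosen after the sequences were seen, and a match is a description of letters.

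Reads were 3′ end tags made with barcoded oligo-dT primers, so a count does not scale with transcript length. The libraries held 3927378 to 20430359 reads on genes, and levels are given as normalised CPM, read counts scaled to the TMM-adjusted size of the library. Acod1 checked the genotype labels of the LPS-treated libraries. It lay between 1.58 and 26.4 CPM in the 12 Irg1-/- libraries and reached 3794 CPM or more in the 9 LPS-treated WT libraries. Without LPS it gave 9.41, 5.82 and 10.05 CPM in WT and 7.79, 11.9 and 9.64 CPM in Irg1-/- Unstim. cultures. These values overlapped, so Acod1 could not check the genotype labels of the Unstim. cultures. The macrophage markers Adgre1, Csf1r, Cd68, Mertk, Fcgr1 and Itgam were detected in every group, and their sum went from 1671 to 1903 CPM in WT and 1785 to 2573 CPM in Irg1-/- Unstim. cultures to 2033 to 3677 CPM and 3153 to 3802 CPM at LPS 24h. Within the list Adgre1, Fcgr1 and Itgam rose at LPS 24h in both genotypes and Mertk fell. Mean Cd68 also went down, from 364 to 223 CPM in WT and from 482 to 262 CPM in Irg1-/- cells. Mean Csf1r went from 421 to 277 CPM and from 501 to 348 CPM. The cultures overlapped in these changes except for Cd68 in Irg1-/- cells. The third WT LPS 24h library stood apart from its group, with 49.0% of its reads on genes against 56.5% and 57.2% and a macrophage sum of 2033 CPM against 3677 and 3152 CPM. It is also the single WT LPS 24h library in the pool of the Unstim. libraries, so every within-pool value of LPS 24h against Unstim. rests on it. Without it the same number of the 10 genes, 2, was called at LPS 24h in WT. In that pool the share of reads on genes ran from 48.0% to 56.0%. The restimulated WT library of that pool also had the lowest macrophage sum of its group, 2958 CPM against 3249 and 3395 CPM. The part of the pool in these differences was not tested. Of the 9 dendritic cell markers, Cd209a was at 0 throughout and Xcr1, Clec9a, Dpp4 and Flt3 stayed at or below 2.44 CPM. Zbtb46 reached at most 2.46 CPM and Kmo 3.80 CPM. Mean Ccr7 rose from Unstim. to LPS 24h, from 0 to 1.98 CPM in WT and from 0.05 to 0.88 CPM in Irg1-/- cells. Mean Clec9a in WT rose too, from 0.08 to 0.75 CPM. The sum of all 9, mostly Itgax, was 28.9 to 33.2 CPM in WT Unstim. and 16.1 to 20.7 CPM in Irg1-/- Unstim. cultures. At LPS 3h it was 24.4 to 30.7 CPM in WT and 20.1 to 28.4 CPM in Irg1-/- cultures. It was 6.50 to 16.5 CPM in the 4 groups given LPS for 24 h. The sum of the B cell list was also lower after 24 h of LPS. It went from 5.82 to 17.2 CPM in the Unstim. groups to 2.87 to 6.17 CPM in the groups given LPS for 24 h, most of it Ebf1, with Cd79a at or below 0.779 CPM. Neutrophil markers summed to 338 to 613 CPM in the Unstim. and LPS 3h groups and to 62.8 to 223 CPM after 24 h of LPS, nearly all S100a8 and S100a9, with Ly6g at or below 1.66 CPM. T cell markers stayed at or below 1.70 CPM except at LPS 3h, where Lck brought the sum to 4.61 to 7.66 CPM, and mast cell or basophil markers stayed at or below 3.58 CPM. The part of other cell types in the results was not tested, and in bulk samples fewer cells of a type and less RNA per cell cannot be told apart.

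**Figure D1:**
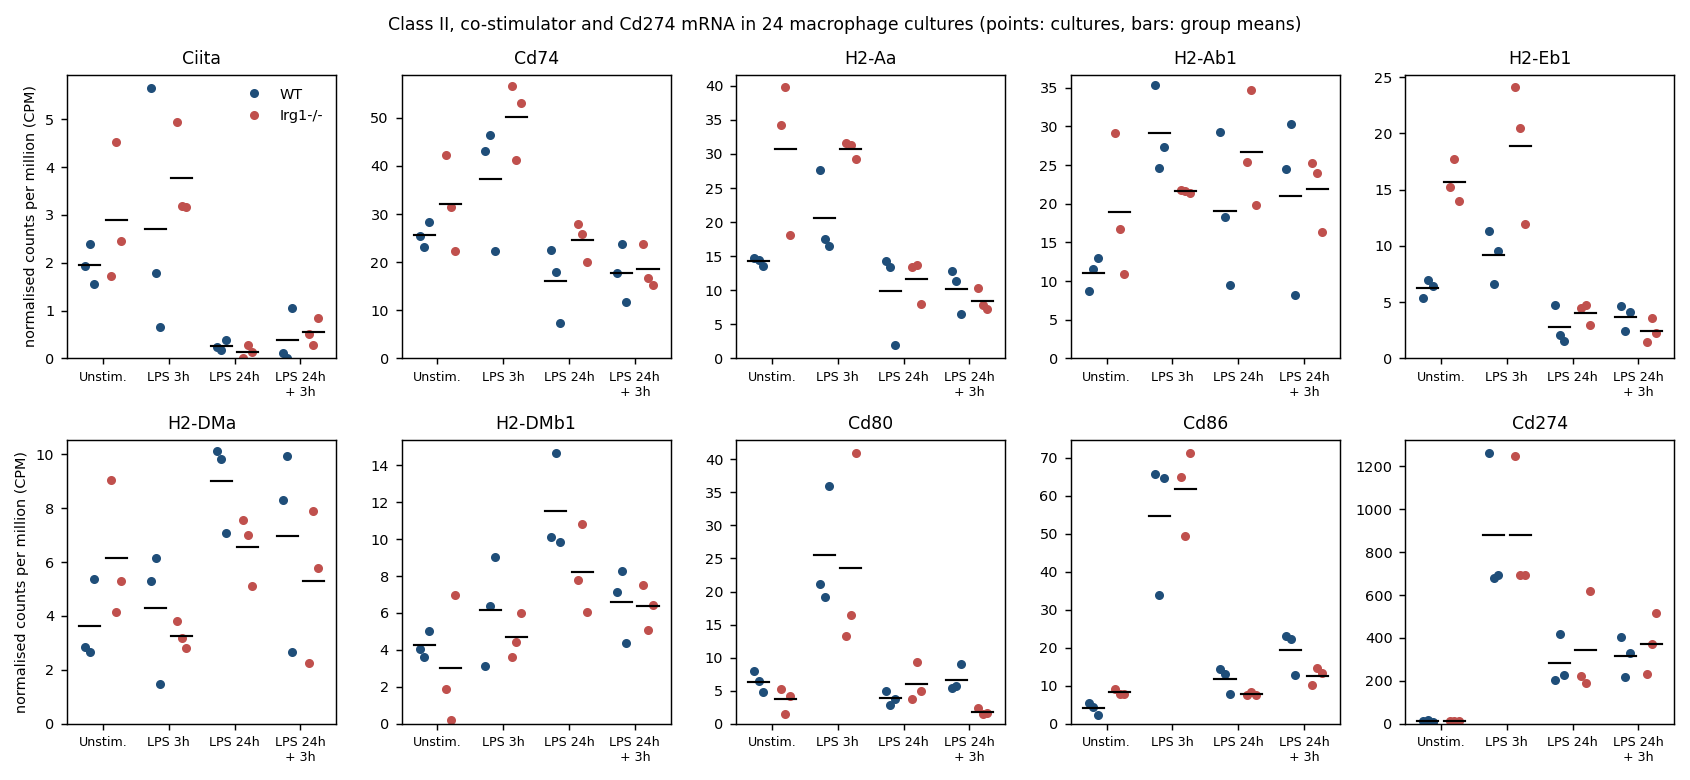
Normalised CPM (vertical axis, linear from 0, a scale of its own in each panel) of the 10 genes in the 24 cultures by treatment (horizontal axis), WT in blue and Irg1-/- in red, with 1 point per culture and a bar at each group mean of 3 cultures. Cd274, Cd86 and Cd80 peaked at LPS 3h, whereas Ciita, H2-Aa and H2-Eb1 were lowest in the groups given LPS for 24 h and H2-Ab1 was not.

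The LPS comparisons asked how each gene responded to a single short stimulus, to a long stimulus and to restimulation. In WT cells at LPS 3h, 4 of the 10 genes had risen and none had fallen, where 32% of all genes tested were called in either direction (edgeR quasi-likelihood test, Benjamini-Hochberg adjusted p under 0.05). At LPS 24h, 2 had risen, against 16.2% of all genes. In restimulated WT cells no gene of the 10 was called against LPS 24h by edgeR, where 3.99% of all genes were called. Of the 10, 1 had an unadjusted p under 0.05 there, beside 1967 of all genes, and DESeq2 called none, beside 766. Against LPS 3h, 5 of the 10 were lower in restimulated WT cells, with 25.5% of all genes called. The early rise in WT comprised H2-Ab1, Cd80, Cd86 and Cd274, and the genes lower on restimulation than on a single stimulus were Cd74, H2-Eb1, Cd80, Cd86 and Cd274.

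In Irg1-/- cells 3 genes rose at LPS 3h, where 35.9% of all genes were called. At LPS 24h, 1 gene was higher and 3 were lower, where 13.7% were called. Restimulated Irg1-/- cells had 1 gene lower than at LPS 24h, with 5.14% of all genes called, and 7 genes lower than at LPS 3h, with 27.2% called. Both 3 h and 24 h comparisons used the same Unstim. cultures as controls, and the restimulated cultures entered both of their comparisons. With total counts in place of TMM scaling, the median log2 change of all genes at LPS 3h moved from -0.18 to -1.10 in WT and from -0.20 to -1.12 in Irg1-/- cells, so changes at this time are relative to that shift.

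**Figure D2:**
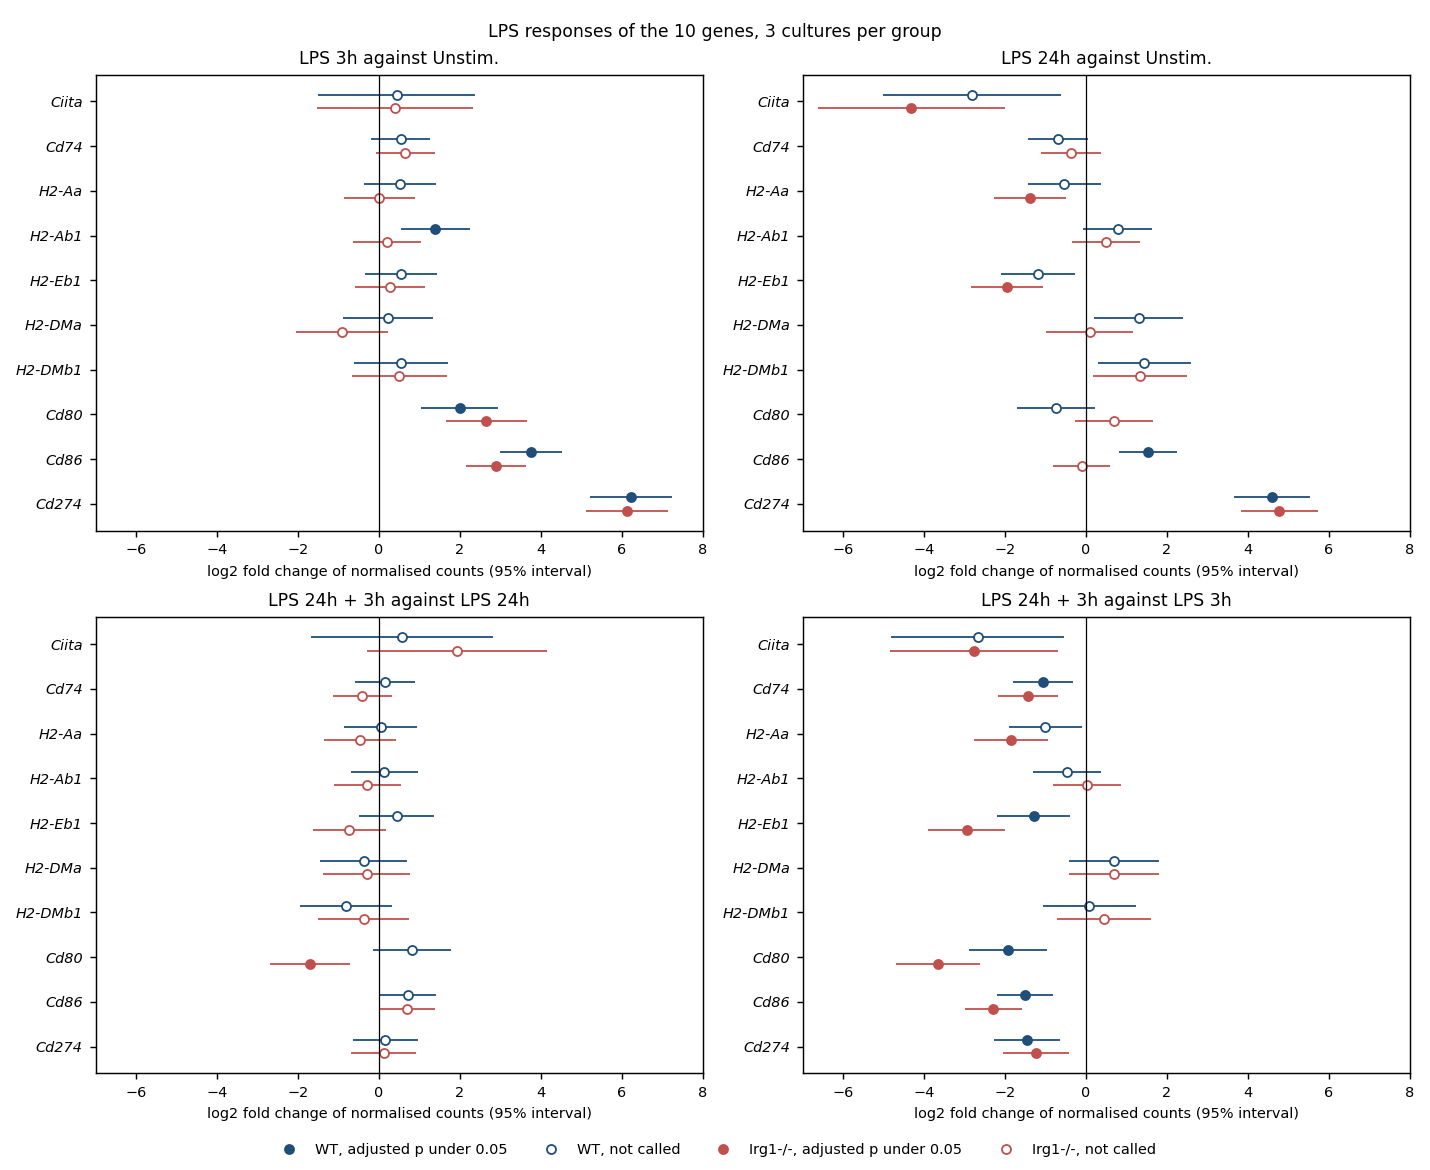
Log2 fold changes of normalised counts (horizontal axis) of the 10 genes (vertical axis) with 95% intervals from the edgeR fit, in 4 comparisons between treatments with 3 cultures per group, WT in blue and Irg1-/- in red, filled where the adjusted p was under 0.05. Cd274 lay at 6.22 and 6.13 at LPS 3h, and no filled point lies to the right of 0 in the panels of restimulated cells.

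Ciita was close to the detection limit and lowest after 24 h of LPS. Its row, ENSMUSG00000022504.9 on chr16:10480059-10528418, held 30, 25 and 32 reads in the WT Unstim. cultures, 31, 15 and 5 at LPS 3h, 2, 2 and 4 at LPS 24h and 1, 0 and 13 in restimulated cells. In Irg1-/- cells it held 11, 24 and 46 reads in Unstim. cultures, 48, 20 and 18 at LPS 3h, 0, 4 and 3 at LPS 24h and 7, 4 and 11 after restimulation. Every LPS 24h culture lay below every Unstim. culture of its genotype. Summed over cultures, the rate in Unstim. cells was 6.99 times that at LPS 24h in WT (95% exact Poisson interval 3.39 to 16.7) and 20.0 times that in Irg1-/- cells (9.29 to 51.4), intervals that cover counting error only. Between cultures, the log2 change at LPS 24h was -4.31 ± 1.13 (SE) in Irg1-/- cells with an adjusted p of 0.00739, and -2.82 ± 1.08 in WT with an adjusted p of 0.0736, which missed the threshold there and passed it with total counts (adjusted p = 0.0463) and by DESeq2 (adjusted p = 0.0195). The Irg1-/- call was lost with the library pool as a term (-3.80, adjusted p = 0.152) and without the first LPS 24h culture (-3.78, adjusted p = 0.0514), and the change was -5.12 without the second. Restimulated Irg1-/- cells were lower than LPS 3h cells by edgeR (log2 change -2.77 ± 1.02, adjusted p = 0.0418), a call lost when any 1 of the 6 cultures was left out. The WT change was -2.68 ± 1.05 with an adjusted p of 0.0576, which passed the threshold by DESeq2 (adjusted p = 0.0139) and with a filter at a mean of 10 counts (adjusted p = 0.0457).

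The class II alpha and beta chains and the invariant chain did not move as a block. H2-Eb1, the I-E beta chain (ENSMUSG00000060586.10), gave 15.3, 17.7 and 14.0 CPM in Irg1-/- Unstim. cultures, 24.1, 20.5 and 12.0 at LPS 3h, 4.46, 4.77 and 2.93 at LPS 24h and 1.46, 3.55 and 2.28 after restimulation. In WT it gave 5.35, 6.97 and 6.44 CPM in Unstim. cultures, 11.3, 6.64 and 9.54 at LPS 3h, 4.75, 2.06 and 1.53 at LPS 24h and 4.61, 2.44 and 4.12 after restimulation. In both genotypes the cultures given LPS for 24 h lay entirely below the Unstim. and LPS 3h cultures. The fall at LPS 24h was 3.86-fold in Irg1-/- cells (log2 change -1.95 ± 0.44, adjusted p = 0.00188). In WT the log2 change was -1.18 ± 0.45 with an adjusted p of 0.07, past the threshold in 5 of the 9 alternative fits and without the first LPS 24h culture. Restimulated cells were lower than LPS 3h cells by 7.74-fold in Irg1-/- (log2 change -2.95 ± 0.46, adjusted p = 1.26e-05) and 2.45-fold in WT (log2 change -1.29 ± 0.45, adjusted p = 0.031), the latter call being lost in 3 of the 9 alternative fits, total counts among them (-0.84), and without 3 of the 6 cultures in turn. Within the 3 library pools that held both WT groups the difference was -1.26, -1.38 and -1.18, and within the 1 pool that held both Irg1-/- groups it was -3.89.

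H2-Aa, the I-A alpha chain (ENSMUSG00000036594.14), followed H2-Eb1. It gave 34.3, 39.8 and 18.0 CPM in Irg1-/- Unstim. cultures, 31.6, 31.3 and 29.2 at LPS 3h, 13.5, 13.7 and 7.94 at LPS 24h and 10.3, 7.83 and 7.21 after restimulation, the last 6 values being below the first 6. In WT it gave 14.8, 14.5 and 13.6 CPM in Unstim. cultures, 27.7, 17.5 and 16.4 at LPS 3h, 14.2, 13.4 and 2.01 at LPS 24h and 12.8, 11.3 and 6.54 after restimulation. The third WT LPS 24h culture, the one that stood apart in other measures, was the low one here too. The third restimulated WT culture, of the same library pool, was the lowest of its group. In Irg1-/- cells H2-Aa fell 2.61-fold at LPS 24h (log2 change -1.38 ± 0.44, adjusted p = 0.0303), a call lost when any of 4 of the 6 cultures was left out, and was 3.63-fold lower in restimulated than in LPS 3h cells (log2 change -1.86 ± 0.45, adjusted p = 0.00217). The WT values were -0.53 ± 0.44 at LPS 24h (adjusted p = 0.48) and -1.01 ± 0.44 for restimulated against LPS 3h cells (adjusted p = 0.0917). With the pool as a term these became -1.59 and -1.08 and passed the threshold (adjusted p = 0.0271 and 0.0414), and within the pool of the Unstim. cultures the LPS 24h difference was -2.73, from the single low culture. Across the 8 group means the Pearson correlation of H2-Aa with H2-Eb1 on the log2 scale was 0.99, over points that share libraries and scaling.

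H2-Ab1, the I-A beta chain that pairs with the H2-Aa product (ENSMUSG00000073421.5), did not fall where H2-Aa and H2-Eb1 were low. WT cultures gave 8.70, 11.6 and 12.97 CPM in Unstim., 35.4, 24.7 and 27.3 at LPS 3h, 29.3, 18.3 and 9.55 at LPS 24h and 24.6, 30.3 and 8.16 after restimulation. The LPS 3h cultures lay above all Unstim. cultures, and the LPS 24h and restimulated cultures overlapped both. H2-Ab1 was the single class II gene called at LPS 3h in WT, 2.62-fold higher (log2 change 1.39 ± 0.42, adjusted p = 0.0102), but the change was 0.46 with total counts and 0.77 with the pool as a term, both without a call. Irg1-/- cultures gave 29.1, 16.8 and 10.9 CPM in Unstim., 21.7, 21.6 and 21.5 at LPS 3h, 25.4, 34.8 and 19.8 at LPS 24h and 25.3, 23.9 and 16.3 after restimulation. These groups overlapped, and no H2-Ab1 comparison in Irg1-/- cells was called. Its correlation with H2-Aa across the 8 group means was 0.10.

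Because H2-Aa, H2-Eb1 and H2-Ab1 were counted in the same libraries, their ratios do not depend on the scaling of a library. The ratios were chosen after the levels had been seen, a choice that their p-values and adjusted values do not account for. The log2 ratio of H2-Eb1 to H2-Ab1 reads was -0.70, -0.73 and -1.01 in WT Unstim. cultures and -2.61, -3.13 and -2.61 at LPS 24h. In Irg1-/- cells it was -0.93, 0.08 and 0.36 in Unstim. cultures and -2.50, -2.86 and -2.75 at LPS 24h, so the groups did not overlap in either genotype. The mean difference over both genotypes was -2.26 (two-sided exact permutation test within genotype, p = 0.005, the smallest its 400 arrangements allow, and 0.0467 adjusted over 28 ratio comparisons). The ratio of H2-Aa to H2-Ab1 fell by 1.77 at LPS 24h with the same exact p and adjusted value, and by 1.68 after restimulation, again with exact p = 0.005. For H2-Eb1 to H2-Ab1 after restimulation the difference was -2.28 (exact permutation p = 0.01, adjusted 0.056). Leaving out each culture in turn or adding 1 count in place of 0.5 kept the LPS 24h differences between -2.45 and -2.12 for H2-Eb1 and between -1.97 and -1.53 for H2-Aa. At LPS 3h the pooled differences were -0.57 for H2-Aa and -0.48 for H2-Eb1, with exact permutation p of 0.035 and 0.135 and adjusted values of 0.163 and 0.27. The genotypes stood apart at this time. The mean ratio of H2-Eb1 to H2-Ab1 was -0.81 in WT Unstim. and -1.68 in WT LPS 3h cultures, but -0.16 and -0.26 in Irg1-/- cultures. Between genotypes at LPS 3h the ratios differed by 1.42 for H2-Eb1 and 1.03 for H2-Aa without overlap, each with a two-sided exact permutation p of 0.1, the smallest that 3 cultures against 3 allow, and 0.233 after adjustment. The H2-Eb1 to H2-Aa ratio differed by -0.48 at LPS 24h (exact permutation p = 0.22). All Irg1-/- LPS 24h libraries were in another pool than the Unstim. libraries, so pool and treatment cannot be told apart there. The WT LPS 24h library in the pool of the Unstim. libraries was the one that stood apart, with log2 ratios of -2.61 for H2-Eb1 and -2.22 for H2-Aa to H2-Ab1. Without it the LPS 24h differences over both genotypes were -2.30 and -1.53. The restimulated WT library in the pool of the Unstim. libraries had a log2 ratio of -0.98 for H2-Eb1 to H2-Ab1, within the WT Unstim. range. Its ratio of H2-Aa to H2-Ab1 was -0.32, where the lowest WT Unstim. culture had 0.07.

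**Figure D3:**
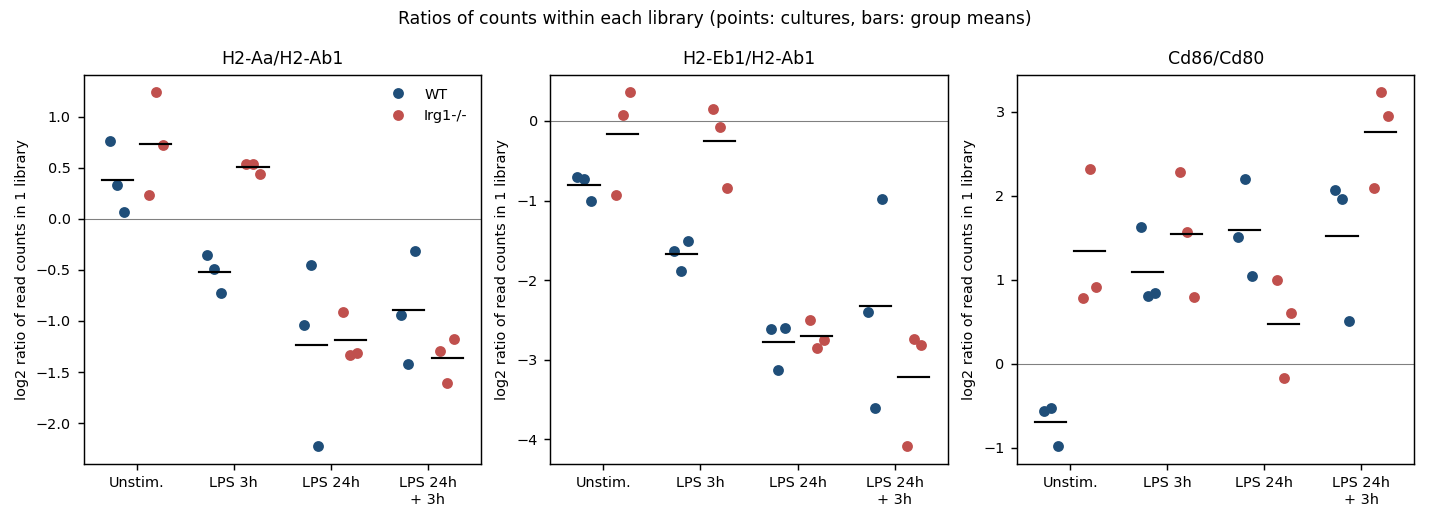
Log2 ratios of read counts within a library (vertical axis) by treatment (horizontal axis) for H2-Aa to H2-Ab1, H2-Eb1 to H2-Ab1 and Cd86 to Cd80, with 1 point per culture, bars at the means of 3 cultures, WT in blue and Irg1-/- in red. Both class II ratios had lower group means after 24 h of LPS than in Unstim. cultures, with overlap for H2-Eb1 to H2-Ab1 in restimulated WT cells. Cd86 to Cd80 was below 0 in all 3 WT Unstim. cultures and above 0 in the 3 Irg1-/- Unstim. cultures.

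Cd74, the invariant chain (ENSMUSG00000024610.14), gave 25.5, 23.1 and 28.4 CPM in WT Unstim. cultures, 43.2, 46.5 and 22.3 at LPS 3h, 22.5, 18.1 and 7.45 at LPS 24h and 17.8, 23.9 and 11.6 after restimulation. Irg1-/- cultures gave 42.2, 31.5 and 22.3 CPM in Unstim., 56.5, 41.1 and 53.1 at LPS 3h, 28.0, 25.9 and 20.1 at LPS 24h and 23.8, 16.7 and 15.3 after restimulation. Restimulated cells were lower than LPS 3h cells, without overlap in Irg1-/- and with overlap in WT. The difference was 2.70-fold in Irg1-/- (log2 change -1.43 ± 0.37, adjusted p = 0.00363) and 2.10-fold in WT (log2 change -1.07 ± 0.36, adjusted p = 0.0291). With total counts these changes were -0.89 and -0.61 and not called, and the WT call was lost without any of 4 of the 6 cultures. At LPS 3h the log2 change of Cd74 was 0.54 ± 0.36 in WT and 0.66 ± 0.36 in Irg1-/- cells by TMM, not called in either, and -0.39 and -0.29 with total counts. At LPS 24h it was -0.68 ± 0.36 in WT (adjusted p = 0.224). With the pool as a term it was -1.52 and called (adjusted p = 0.00279), and within the pool of the Unstim. cultures, which held only the lowest WT LPS 24h culture, the difference was -1.76. In Irg1-/- cells the LPS 24h change was -0.37 ± 0.36 (adjusted p = 0.581), and -1.35 and called with the pool as a term (adjusted p = 0.0302), a fit in which WT libraries alone link the pool of the Unstim. libraries to the others.

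H2-DMa and H2-DMb1, the subunits of the peptide editor, were called in none of the 8 LPS comparisons. In WT, H2-DMb1 (ENSMUSG00000079547.3) gave 4.06, 3.63 and 5.02 CPM in Unstim. cultures and 10.1, 14.7 and 9.84 at LPS 24h, and H2-DMa (ENSMUSG00000037649.9) gave 2.83, 2.67 and 5.36 and then 10.1, 9.83 and 7.07. For both, all WT LPS 24h cultures lay above all WT Unstim. cultures, opposite to Ciita and H2-Eb1. The log2 changes were 1.44 ± 0.56 for H2-DMb1 (adjusted p = 0.0814) and 1.30 ± 0.54 for H2-DMa (adjusted p = 0.101), and neither passed the threshold, although H2-DMb1 did with only the compared groups fitted (1.42, adjusted p = 0.0233). At LPS 3h in Irg1-/- cells H2-DMa had a log2 change of -0.90 (adjusted p = 0.212), which was -1.83 and called with total counts (adjusted p = 0.00759). At LPS 24h in Irg1-/- cells the H2-DMa change was 0.09 ± 0.53 (adjusted p = 0.947), with overlapping cultures. In Irg1-/- Unstim. cultures H2-DMb1 gave 1.87, 0.188 and 6.96 CPM, a wide spread in which 1 library held a single read. Against them the LPS 24h cultures gave 7.78, 10.8 and 6.07 CPM, a log2 change of 1.33 ± 0.57 (adjusted p = 0.131) that became 2.95 and was called without the third Unstim. culture (adjusted p = 0.00179), as did the LPS 3h change, from 0.51 to 2.16 (adjusted p = 0.0104). H2-DMb1 may share reads with its neighbouring near-copy H2-DMb2, so its counts are uncertain in that respect.

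Cd86 rose early in both genotypes and stayed up at LPS 24h in WT. WT cultures gave 5.35, 4.49 and 2.39 CPM in Unstim., 65.8, 33.8 and 64.5 at LPS 3h, 14.4, 12.96 and 7.74 at LPS 24h and 22.9, 22.2 and 12.8 after restimulation. All LPS-treated WT cultures lay above the Unstim. cultures. Cd86 (ENSMUSG00000022901.13, chr16:36603869-36666081, minus strand) rose 13.5-fold at LPS 3h (log2 change 3.75 ± 0.37, adjusted p = 1.44e-09), stayed 2.88-fold above Unstim. at LPS 24h (log2 change 1.53 ± 0.35, adjusted p = 0.0021) and was 2.83-fold lower in restimulated than in LPS 3h cells (log2 change -1.50 ± 0.34, adjusted p = 0.00132). Within pools the log2 differences were 4.00 at LPS 3h and 0.97 at LPS 24h, each from 1 culture against 3, and -1.51, -0.60 and -2.31 for restimulated against LPS 3h cells. Irg1-/- cultures gave 9.19, 7.92 and 7.92 CPM in Unstim., 64.9, 49.4 and 71.2 at LPS 3h, 7.57, 8.34 and 7.43 at LPS 24h and 10.1, 14.6 and 13.2 after restimulation. Here the LPS 24h and Unstim. cultures overlapped. The rise at LPS 3h was 7.41-fold (log2 change 2.89 ± 0.36, adjusted p = 1.29e-07), the LPS 24h change was -0.10 ± 0.35 (adjusted p = 0.903), and restimulated cells were 4.89-fold below LPS 3h cells (log2 change -2.29 ± 0.35, adjusted p = 8.38e-06).

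Cd80 rose at LPS 3h and was near its Unstim. range in the WT groups given LPS for 24 h. It gave 7.92, 6.49 and 4.73 CPM in WT Unstim. cultures, 21.1, 19.2 and 36.0 at LPS 3h, 4.99, 2.77 and 3.73 at LPS 24h and 5.42, 5.65 and 8.96 after restimulation. The LPS 3h cultures stood above all others. Cd80 (ENSMUSG00000075122.4, chr16:38455561-38496335) was 3.99-fold higher at LPS 3h (log2 change 2.00 ± 0.47, adjusted p = 0.00117, and 1.07 with adjusted p = 0.0514 with total counts) and 3.80-fold lower in restimulated than in LPS 3h cells (log2 change -1.93 ± 0.47, adjusted p = 0.00263). Within pools the differences were 2.50 for the former and -1.93, -1.73 and -1.99 for the latter. Irg1-/- cultures gave 5.30, 1.51 and 4.18 CPM in Unstim., 13.3, 16.5 and 41.0 at LPS 3h, 3.79, 9.39 and 4.88 at LPS 24h and 2.34, 1.52 and 1.67 after restimulation. The restimulated cultures lay below all LPS 3h and LPS 24h cultures. The early rise was 6.30-fold (log2 change 2.66 ± 0.49, adjusted p = 6.85e-05, and 2.05 without the third LPS 3h culture), and restimulated cells were 12.7-fold below LPS 3h cells (log2 change -3.66 ± 0.51, adjusted p = 2.32e-06, and -3.03 without that culture) and 3.25-fold below LPS 24h cells (log2 change -1.70 ± 0.48, adjusted p = 0.033). The last call was lost when any of 5 of the 6 cultures was left out. The log2 ratio of Cd86 to Cd80 reads differed between LPS 3h and Unstim. by 1.00 over both genotypes (exact permutation p = 0.065, adjusted 0.233).

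Cd274, the PD-L1 gene (ENSMUSG00000016496.7, chr19:29367455-29388095), had the largest rise of the 10 genes at LPS 3h in each genotype. WT cultures gave 10.2, 15.4 and 9.70 CPM in Unstim., 1261, 681 and 692 at LPS 3h, 203, 421 and 227 at LPS 24h and 405, 218 and 329 after restimulation. Irg1-/- cultures gave 11.1, 13.6 and 13.01 CPM in Unstim., 1249.9, 693 and 694 at LPS 3h, 222, 189 and 620.0 at LPS 24h and 233, 374 and 514 after restimulation. Every LPS-treated culture lay far above every Unstim. culture, and the LPS 3h cultures lay above those given LPS for 24 h. The rise at LPS 3h was 74.8-fold in WT (log2 change 6.22 ± 0.49, adjusted p = 9.98e-12) and 70.0-fold in Irg1-/- cells (log2 change 6.13 ± 0.49, adjusted p = 1.57e-11). At LPS 24h Cd274 was still 24.2-fold and 27.3-fold above Unstim. (adjusted p = 3.74e-09 and 3.80e-09). In Irg1-/- cells the third LPS 24h culture was the highest, and without it the log2 change was 4.03 in place of 4.77. Restimulation did not bring it back to the LPS 3h level: the log2 change against LPS 3h was -1.47 ± 0.40 in WT (adjusted p = 0.00672, lost without the first LPS 3h culture) and -1.23 ± 0.40 in Irg1-/- cells (adjusted p = 0.0201, lost with total counts at -0.71 and without 3 of the 6 cultures in turn). Within pools the WT difference at LPS 3h was 5.89, and restimulated cells differed from LPS 3h cells by -1.64, -1.64 and -1.07 in WT and -2.42 in Irg1-/- cells. Against LPS 24h it was 0.16 in WT (95% interval -0.64 to 0.96) and 0.12 in Irg1-/- cells (-0.68 to 0.92).

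The genotype comparison asked whether loss of Irg1 altered these genes under any treatment. By edgeR none of the 10 genes was called between Irg1-/- and WT cells in Unstim., LPS 3h, LPS 24h or restimulated cultures, where 0.0421%, 0.00842%, 0.598% and 0.118% of all genes were called. At an unadjusted p under 0.05 there were 3, 1, 0 and 1 of the 10, beside 618, 694, 1195 and 936 of the 11878 genes tested. DESeq2 called 0, 0, 0 and 1 of the 10, beside 31, 8, 215 and 106 of all genes. In the LPS groups the genotypes were spread unevenly over the library pools. All 3 Irg1-/- LPS 24h libraries shared a pool with 1 WT LPS 24h library. Of the Irg1-/- LPS 3h libraries, 2 were in a pool without WT libraries. With the pool as a term, 12 of all genes were called between genotypes at LPS 24h, in place of 71. The differences between genotypes in the response at LPS 3h, at LPS 24h and on restimulation after LPS 24h were not called for any of the 10 genes either, against 0.00842%, 0.21% and 0.00842% of all genes, with 0, 2 and 1 at an unadjusted p under 0.05 (675, 967 and 1029 of all genes) and 0, 0 and 1 called by DESeq2 (4, 89 and 55 of all genes).

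**Figure D4:**
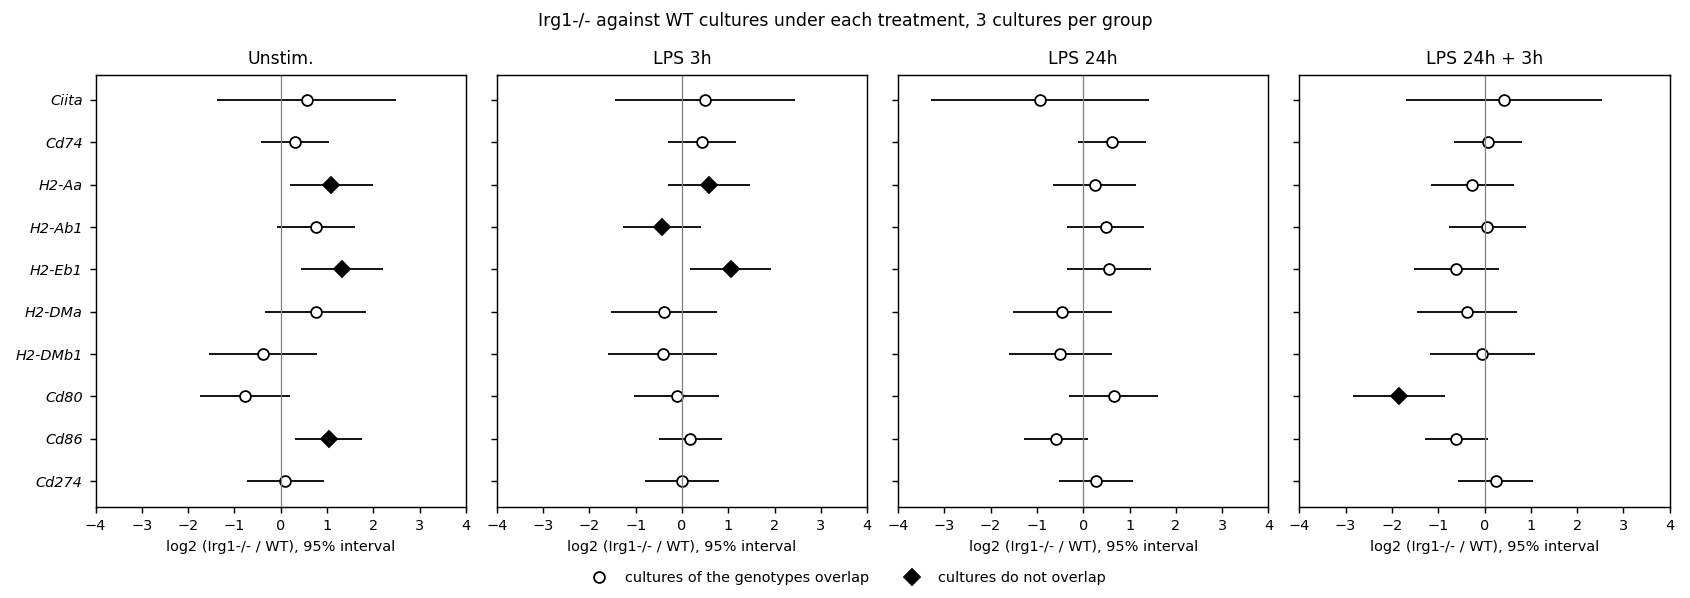
Log2 ratio of Irg1-/- to WT (horizontal axis) of the 10 genes (vertical axis) with 95% intervals from the edgeR fit, 1 panel per treatment, with 3 cultures per group. Filled diamonds mark genes whose cultures did not overlap between genotypes, among them Cd80 in restimulated cells at -1.86. At LPS 3h they include H2-Ab1, lower in Irg1-/- cells, and H2-Aa and H2-Eb1, higher there. The share of all genes without overlap was not counted, and no gene of the 10 passed the adjusted threshold.

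The genes with an unadjusted p under 0.05 were Cd80 in restimulated cells, H2-Eb1, H2-Aa and Cd86 in Unstim. cells and H2-Eb1 at LPS 3h. Cd80 in restimulated Irg1-/- cultures lay below all restimulated WT cultures, at 2.34, 1.52 and 1.67 against 5.42, 5.65 and 8.96 CPM. The difference was 3.62-fold (log2 -1.86 ± 0.49, unadjusted p = 0.000646, adjusted p = 0.132). It passed the threshold by DESeq2 (adjusted p = 0.0305) and in edgeR without the filter on low counts (adjusted p = 0.0266), fits that called 106 and 133 genes in all where the main one called 14, and within the 2 library pools that held both genotypes it was -1.66 and -1.21. The difference in the Cd80 response to restimulation was -2.51 ± 0.68 (95% interval -3.89 to -1.13, adjusted p = 0.203), called without the filter (adjusted p = 0.027) and by DESeq2 (adjusted p = 0.0489), where 170 and 55 genes in all were called in place of 1.

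The Unstim. libraries were all in 1 pool, and Acod1 could not check their genotype labels. In Unstim. cells H2-Eb1, H2-Aa and Cd86 were each higher in all 3 Irg1-/- than in all 3 WT cultures. The log2 differences were 1.32 (95% interval 0.44 to 2.20) for H2-Eb1, 1.10 (0.21 to 1.98) for H2-Aa and 1.04 (0.32 to 1.76) for Cd86, with adjusted p of 0.481, 0.743 and 0.544. H2-Eb1 was also higher in each Irg1-/- culture at LPS 3h (1.05, 95% interval 0.17 to 1.93, adjusted p = 0.735). At this time H2-Aa was higher in each Irg1-/- culture too (0.58), and H2-Ab1 was lower in each (-0.43). The share of all genes whose genotypes did not overlap was not counted. For Cd86 the response at LPS 24h differed by -1.62 ± 0.49 between genotypes (95% interval -2.63 to -0.62, adjusted p = 0.237), from 2.88-fold in WT and 0.934-fold in Irg1-/- cells. The log2 ratio of Cd86 to Cd80 reads was -0.56, -0.53 and -0.98 in WT and 0.79, 2.32 and 0.92 in Irg1-/- Unstim. cultures, 1.51, 2.21 and 1.04 against 0.99, -0.17 and 0.60 at LPS 24h, and 2.07, 1.97 and 0.52 against 2.09, 3.24 and 2.96 after restimulation. The genotypes did not overlap in these 3 treatments, and the order turned at LPS 24h. With 3 cultures against 3 the two-sided exact permutation p was 0.1 each time, the smallest possible, and 0.233 after adjustment. At LPS 3h the genotypes overlapped (difference 0.46, exact permutation p = 0.7). For Cd274 the genotype differences were small, from 0.00 at LPS 3h (95% interval -0.80 to 0.80) to 0.28 at LPS 24h (-0.52 to 1.08), the latter ranging from -0.46 to 0.69 when 1 culture was left out.

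Of 30 further genes of the pathway, listed by role, 24 passed the filter, and the class II genes H2-DMb2, H2-Oa, H2-Ob and H2-Eb2 did not. At LPS 3h, 10 rose and 2 fell in WT, and 10 rose and 6 fell in Irg1-/- cells, where 32% and 35.9% of all genes were called. The leading ones were co-stimulatory ligands and receptors. Cd40, which receives the T cell signal CD40L, gave 4.06, 1.91 and 1.66 CPM in WT Unstim. cultures and 997, 1126 and 855 at LPS 3h (log2 change 8.60 ± 0.51). Icam1, the adhesion ligand of LFA-1, had log2 changes of 6.21 ± 0.46 in WT and 5.58 ± 0.45 in Irg1-/- cells, and Tnfsf9, the 4-1BB ligand, of 9.06 ± 0.65 and 8.35 ± 0.64. Tnfsf4, the OX40 ligand, had 0 reads in all WT Unstim. cultures and 82, 159 and 162 at LPS 3h. At LPS 24h, 7 of the 24 were higher and 1 lower in WT, and 5 higher and 1 lower in Irg1-/- cells, against 16.2% and 13.7% of all genes. Cd40 was at 4.00 ± 0.42 in WT and 2.98 ± 0.41 in Irg1-/- cells on the log2 scale, and none of the 7 listed transcription factors of class II promoters was called at LPS 24h. At LPS 3h, 2 of these 7 were higher and 1 lower in WT, and 2 higher and 3 lower in Irg1-/- cells. In restimulated against LPS 3h cells, 2 were higher and 1 lower in WT, and 3 higher and 2 lower in Irg1-/-, where 25.5% and 27.2% of all genes were called.

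March1, a ubiquitin ligase that removes class II and Cd86 from the surface, had the smallest adjusted p of the 24 at LPS 24h in Irg1-/- cells. It gave 44.9, 62.0 and 51.9 CPM in Irg1-/- Unstim. cultures and 342, 282 and 652 at LPS 24h, against 54.9, 61.7 and 49.7 and then 184, 216 and 182 in WT. The groups did not overlap within either genotype. The rise was 8.04-fold in Irg1-/- (log2 change 3.01 ± 0.38, adjusted p = 4.44e-07) and 3.50-fold in WT (log2 change 1.81 ± 0.36, adjusted p = 0.000396). The Irg1-/- LPS 24h cultures all lay above the WT ones (log2 difference 1.13, 95% interval 0.41 to 1.85, adjusted p = 0.165). Within the 1 pool that held both genotypes at LPS 24h the difference was 1.11, from 3 Irg1-/- cultures against 1 WT culture. Cd83, which protects class II and Cd86 from March1, fell in Irg1-/- cells at LPS 24h (log2 change -2.50 ± 0.40, adjusted p = 2.25e-05) and was not called lower in WT. In both genotypes it was higher in restimulated than in LPS 24h cells (log2 change 2.40 ± 0.40 in Irg1-/- and 1.42 ± 0.39 in WT). Restimulation against LPS 24h changed 2 of the 24 upward in WT, Cd83 and the protease Ctss, whose cultures overlapped between the groups, and 2 upward and 2 downward in Irg1-/- cells, Cd40 and Cd83 against March1 and the inhibitory ligand Vsir, where 3.99% and 5.14% of all genes were called. Against LPS 3h, restimulated cells had 3 genes higher and 7 lower in WT and 4 higher and 9 lower in Irg1-/- cells, against 25.5% and 27.2% of all genes, with log2 changes of -5.15 for Tnfsf9 and -3.61 for Cd40 in WT and of -3.93 and -3.03 in Irg1-/- cells. By edgeR none of the 24 was called between genotypes under any treatment or for any difference in response, where at most 0.598% of all genes were called.

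The genes whose 8 group means ran most like those of a member were named as a description, by Pearson correlation on the log2 scale. Over the 24 single libraries the same pairs had lower correlations, given second. For Cd274 they were Upp1, Cxcl9 and Apbb1ip, each at 0.995 or more over the means and at 0.931, 0.9749 and 0.741 over the libraries. For Cd86 they were Smim3, Rtraf and Fbxw11, at 0.986 or more and at 0.921, 0.818 and 0.864. H2-Eb1 ran with Arhgef40 (0.978 and 0.702), Cyp1b1 (0.968 and 0.888) and Six4 (0.965 and 0.835), and H2-Aa with Six4 (0.966 and 0.760), Arhgef40 (0.965 and 0.638) and Mybl1 (0.962 and 0.418). Arhgef40 and Six4 thus stood in both lists. For Ciita the leading gene was Pcdh19 (0.983 and 0.722), for Cd74 Uaca (0.982 and 0.523), for Cd80 Serinc1 (0.967 and 0.469) and for H2-Ab1 Zfp691 (0.933 and 0.622).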

How the data were processed

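Sequencing of 3′ mRNA tags gave 24 libraries of BMDMs in 8 groups of 3 cultures, grouped by the genotype, treatment and number in the sample labels. According to the methods, barcoded oligo-dT cDNA of several samples was pooled, amplified and sequenced, and the submitters' processing notes name STAR and mm10. The counting program, annotation and strand setting are not given in the sources used here. The values are read counts per gene as deposited by the authors, whole numbers without normalization, with no molecular identifiers. The 5 summary lines, which name no gene, entered neither library sizes nor tests. They held 22.1% to 33.7% of a column as reads on no gene, 15.1% to 22.5% as not unique and 0.254% to 0.441% as ambiguous. There were 0 unused columns.

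Counts were filtered with filterByExpr, scaled by TMM and fitted in edgeR 4.0.16 (R 4.3.3) with 1 term per group over all 24 libraries. Contrasts were tested by the quasi-likelihood test with Benjamini-Hochberg adjustment over 11878 genes at 0.05, and p-values are from this fit unless another test is named. Log2 levels used for group means and within-pool differences carry a prior count of 2, and intervals are at 95%. Positions were from GENCODE M21 and promoter sequences from RefSeq, both on GRCm38, matched by identifier without its version or by symbol. Count ratios within a library used 0.5 added counts and exact permutation tests within genotype in Python 3.11.15. The pipeline was tested on simulated data. No pair of libraries in a group agreed within sampling noise.

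Named genes were the 10 members in every comparison, up to 4 further genes of the pathway per comparison by smallest adjusted p, and the 3 genes most alike to a member. The members and lists were chosen with earlier results of these data known. The library pool was read from the prefix of each sample's description. All Unstim. libraries were in 1 pool, WT LPS libraries were spread over 3 pools, and Irg1-/- LPS libraries were in pools other than that of Unstim., so pool and treatment cannot be told apart for LPS against Unstim. in Irg1-/- cells. Pool and genotype were unevenly combined in the LPS groups, which bears on the genotype comparisons there. Alternatives were DESeq2 1.42.0, 2 other scalings, 2 other filters, a replicate block, the pool as a term, only the compared groups, and each culture left out in turn.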

Additional observations from a re-analysis of the deposited data

How the results depend on the processing

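Over all alternatives, 26 comparisons of single members were called and none of them changed direction, and 15 of the 26 were called in every alternative. Of the 124 that were not called, 51 changed direction in at least 1 alternative. With total counts in place of TMM, the members called were 2 at LPS 3h against Unstim. in WT, 4 at LPS 24h against Unstim. in WT, 3 for restimulated against LPS 3h in WT and 4 for the same comparison in Irg1-/- cells. Of all 11878 genes, 6856, 2147, 4375 and 4886 were called there, against 3805, 1928, 3028 and 3233 with TMM. With the pool as a term, 5 were called at LPS 24h in WT, and DESeq2 called 4, beside 1890 and 2277 of all genes. With the fit restricted to the groups compared, 3 were called for restimulated against LPS 3h in WT, beside 2233 of 10272 genes. For Irg1-/- against WT restimulated cells and for the genotype difference in the restimulation response, no filter and DESeq2 gave 1 each, Cd80 in every case, while the genes called in all went from 14 to 133 and 106 and from 1 to 170 and 55. Leaving out 1 culture gave 2 to 5 calls for restimulated against LPS 3h in WT, with 2 without the first WT LPS 3h culture. It gave 2 to 5 for Irg1-/- LPS 24h against Unstim., with 2 without the first Irg1-/- LPS 24h culture, and 0 to 1 for restimulated against LPS 24h in Irg1-/- cells. Beyond the fewer samples or the different genes tested in these fits, the cause was not tested.

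The replicate numbers of the labels did not clearly pair the samples within a genotype: of 36 same-number pairs, 5 had deviations correlated above 0.1, and 8 of 24 libraries correlated best with their own number. Across genotypes and in different pools, 8 of 39 same-number pairs lay above 0.1, against 3 of 66 pairs of different number. In shared pools it was 3 of 9 against 4 of 30. With a replicate block, the genes called in all at LPS 3h in WT went from 3805 to 4046. Those called between genotypes at LPS 24h went from 71 to 67. Pairing by number was therefore not settled. With the replicate block, members called for restimulated against LPS 3h in WT went from 5 to 6, adding H2-Aa (adjusted p = 0.0417), and no other count of members changed. With the block nested in genotype, H2-Eb1 was added at LPS 24h in WT and Ciita was lost for restimulated against LPS 3h in Irg1-/- cells (adjusted p = 0.0607). Ciita, at 0 to 48 reads per library, was the member most limited by depth.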
